A study of Homo sapiens with 8 samples.

Results

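Iron storage, haem breakdown, iron uptake and iron sensing were followed in single cells through 9 genes: the ferritin chains FTH1 and FTL, NCOA4, HMOX1, TFRC, SLC11A2, SLC39A14, IREB2 and ACO1. The genes were taken by symbol, and all 9 were listed in every library, among 15041 genes listed in at least 1 library and 10829 listed in all. They were proposed with results of these libraries in view, and the values that chose them are not given. Differences of these 9 genes between genotypes are therefore printed as a description, with a standard error (SE) or a 95% interval and no test. Irradiation is tested, but whether its values also entered the choice is not known, so its p-values carry that limit.

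MDA-MB-231, which was derived from a triple-negative breast tumour, was picked cell by cell and sequenced by a modified Smart-seq2 protocol with libraries from the 3' end of mRNA. The study asked how transcripts change after irradiation when ATM, a kinase activated by breaks in both strands of DNA, is present or knocked down. There were 4 groups of 2 libraries: ATM knockdown given 5 Gy and cultured for 4 h more, untreated ATM knockdown, wild type (WT) given the same dose and time, and untreated WT. The labels give neither the knockdown's construct nor whether it is 1 clone, and nothing in them tells whether paired libraries are from 1 culture or 2, so p-values measure a spread between libraries that may be technical.

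Of 378 cells, 363 were kept, and all 15 left out were knockdown cells; no cell had the counts of another. The kept cells of a library held 9321268 to 24256471 counts in all. Levels are counts per 1000000 (CPM) of the counts summed over a library's kept cells. The 6 markers fixed for MDA-MB-231 summed to 5743 to 7443 CPM per library. The 5 listed macrophage markers of 10 summed to 1.24 to 9.76 CPM and the 5 listed erythroid markers of 10 to 0 to 7.06 CPM, with HBB at 5.88 CPM in 1 irradiated knockdown library. Of 8 luminal breast markers fixed as low in this line, 6 were listed. They summed to 846 and 894 CPM in irradiated knockdown and 769 and 882 CPM in untreated knockdown. In irradiated WT they summed to 1260 and 1114 CPM, and in untreated WT to 1253 and 1356 CPM. KRT8, named after its values were seen, made up most of this at 634 to 1271 CPM per library, so it was not low here. ESR1 and FOXA1 were not listed. Of the 5 tested, 3 were higher and 2 lower in untreated knockdown than in untreated WT, with 1 called each way (adjusted p below 0.05 in edgeR, 9.94% of all genes). In irradiated cells 2 were higher and 3 lower, with 0 called higher and 1 lower (5.1%). EPCAM averaged 54.8 and 54.4 CPM in irradiated and untreated knockdown, against 27.4 and 21.1 CPM in irradiated and untreated WT. The 13 mitochondrially encoded transcripts summed to 102147 and 106391 CPM in irradiated knockdown, 110812 and 119601 CPM in untreated knockdown, 97578 and 102811 CPM in irradiated WT and 93598 and 96259 CPM in untreated WT. Between genotypes, 5 of the 13 were higher and 1 lower in untreated cells and 1 higher and 2 lower in irradiated cells (adjusted p below 0.05 in edgeR, as for 9.94% and 5.1% of all genes). The luminal sum, which is mostly KRT8, was lower in all 4 knockdown libraries. The mitochondrial sum was higher in untreated knockdown than in untreated WT. The part of both sums in the differences between genotypes was not tested. ATM averaged 13.5 ± 0.710 CPM in irradiated knockdown, 23.4 ± 13.5 CPM in untreated knockdown, 30.6 ± 3.67 CPM in irradiated WT and 44.5 ± 18.9 CPM in untreated WT (SD, n = 2 libraries each). Replicate 2 of the untreated knockdown, at 33.0 CPM, was level with WT. Between genotypes ATM did not pass edgeR's test in either pair of groups, but did in the mean over both treatments. All knockdown libraries share a title suffix that no WT library has, so handling and genotype cannot be told apart.

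Ferritin is a hollow shell built of heavy (FTH1) and light (FTL) chains, in which iron is stored after the heavy chain has oxidised it. When a cell is short of iron, the iron regulatory proteins ACO1 and IREB2 bind hairpins in messenger RNA: bound in a 5' untranslated region (UTR) they block translation, as for ferritin, and bound in a 3' UTR they protect the transcript, as for the transferrin receptor TFRC. Haem oxygenase 1 (HMOX1) breaks down haem and releases its iron, and its gene, like those of the ferritin chains, is a known target of the activator NRF2 and the repressor BACH1.

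The hairpins that would bring FTL and TFRC under this control are shown as background. Their part in the levels measured here was not tested. The hairpins were read from GENCODE 29 transcripts (GRCh38) by searching for CNNNNNCAGTGN on the transcript strand, with a last base other than G. The 5 bases after the loop had to pair with the 5 N before it, G-U pairs allowed. FTH1, HMOX1 and SLC39A14 were not searched here. Such a hairpin occurred in 2 of the 6 other genes and in 205 of 19684 coding genes (1.04%). Capitals mark the bulged C and the loop, and lower case the stem and flanks.
FTL, 5' UTR, chr19:48965335-48965363, plus strand: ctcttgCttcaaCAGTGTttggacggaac
TFRC, 3' UTR, chr3:196050979-196051007, minus strand: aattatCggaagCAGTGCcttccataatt
TFRC, 3' UTR, chr3:196050575-196050603, minus strand: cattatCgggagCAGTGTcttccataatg
TFRC, 3' UTR, chr3:196050510-196050538, minus strand: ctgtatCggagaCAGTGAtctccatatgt
TFRC, 3' UTR, chr3:196050463-196050491, minus strand: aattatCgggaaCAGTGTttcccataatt
FTL held 1 match, 41 bases from the transcript start, and TFRC held 4 within its 3' UTR, in all 3 of its coding transcripts. Hairpins with another loop, or with an unpaired base among those 5, were not counted, so a gene without a match may still hold one. A match describes the letters only, and binding was not measured.

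**Figure D1:**
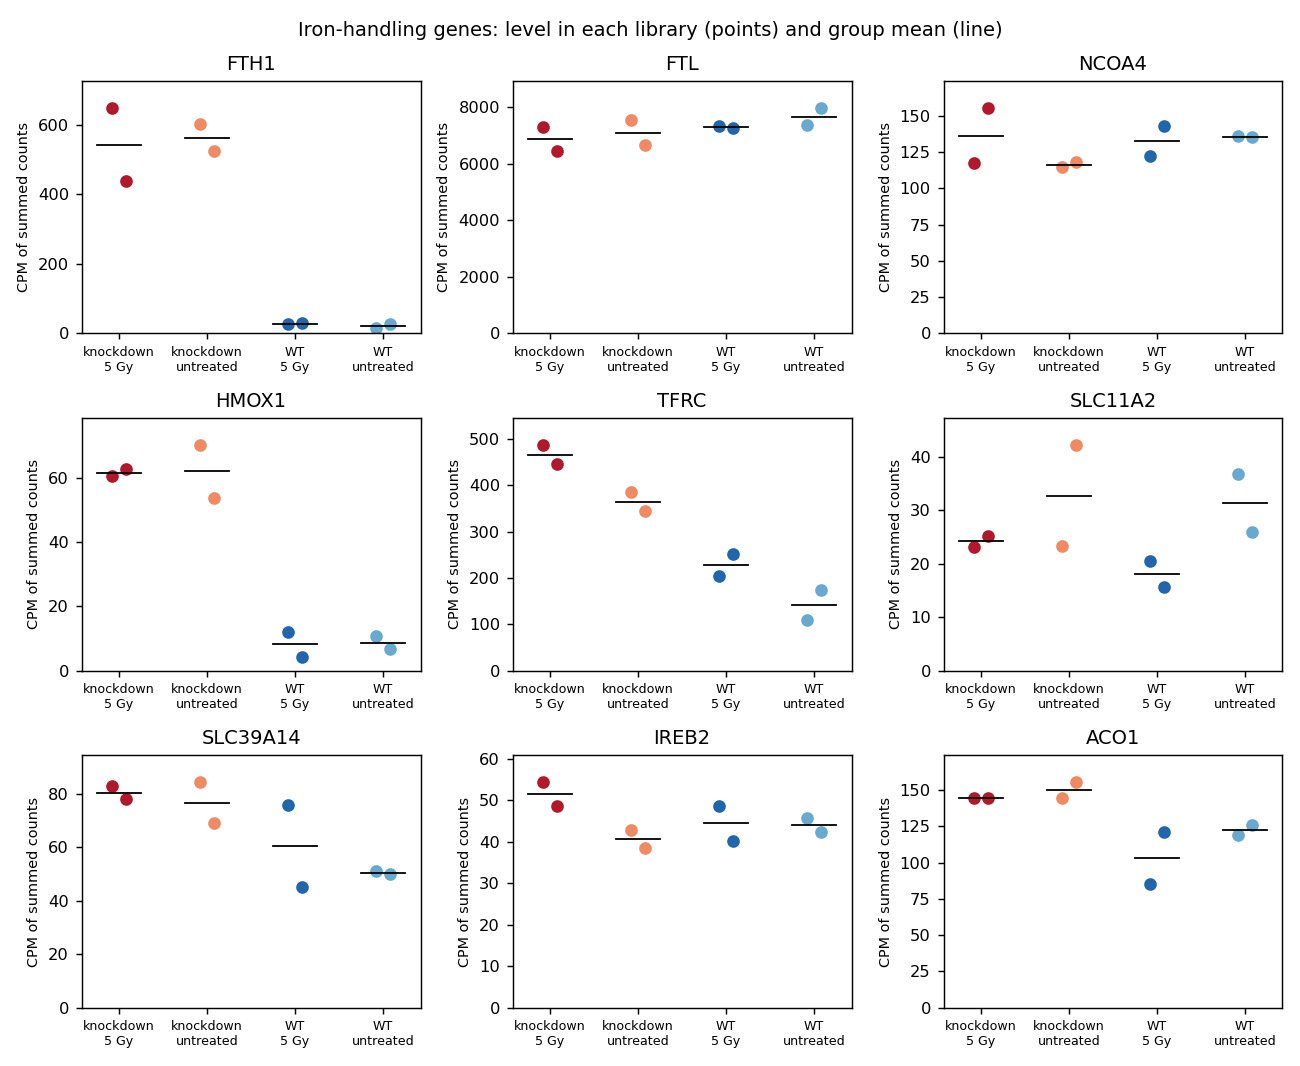
Level of each of the 9 genes in counts per 1000000 (CPM) of the summed counts of a library (points, 2 libraries a group), with the group mean as a line, in irradiated (5 Gy) and untreated ATM knockdown and in irradiated and untreated WT. FTH1, HMOX1 and TFRC are higher in all 4 knockdown libraries than in all 4 WT libraries, while FTL lies between 6443 and 7960 CPM throughout.

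The question of the comparison between genotypes was how ATM knockdown cells differ from WT cells without and with irradiation. The heavy chain of ferritin, HMOX1 and the transferrin receptor were higher in knockdown under both treatments, by 24.8-fold, 6.86-fold and 2.48-fold in untreated cells and by 18.2-fold, 7.36-fold and 1.94-fold in irradiated cells. The light chain of ferritin, the cargo receptor NCOA4, the transporters SLC11A2 and SLC39A14 and both iron regulatory proteins differed by less than 1.5-fold in either pair of groups.

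FTH1 (ENSG00000167996.15, GRCh38 chromosome 11, 61959718 to 61967660, minus strand) carries the site that oxidises iron for storage. It stood at 649 and 438 CPM in irradiated knockdown, at 602 and 525 CPM in untreated knockdown, at 26.7 and 30.0 CPM in irradiated WT and at 16.9 and 26.8 CPM in untreated WT. The lowest knockdown library was thus far above the highest WT library, and within each genotype the irradiated and untreated libraries overlapped. The log2 difference between knockdown and WT was 4.63 (SE 0.252) in untreated cells and 4.19 (SE 0.248) in irradiated cells.

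FTL (ENSG00000087086.14, chromosome 19, 48965301 to 48966878, plus strand), the chain that favours iron core formation, showed no such step. It stood at 7282 and 6443 CPM in irradiated knockdown, at 7528 and 6660 CPM in untreated knockdown, at 7335 and 7269 CPM in irradiated WT and at 7351 and 7960 CPM in untreated WT. The groups overlapped in both pairs. The log2 difference between knockdown and WT was -0.17 (95% interval -0.36 to 0.03) in untreated cells and -0.16 (95% interval -0.36 to 0.04) in irradiated cells.

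The 2 chains therefore stood in another proportion in each genotype. The log2 ratio of FTL to FTH1 counts, which is not corrected for transcript length, was 3.49 and 3.88 in irradiated knockdown, 3.64 and 3.67 in untreated knockdown, 8.10 and 7.92 in irradiated WT and 8.76 and 8.22 in untreated WT. The lowest WT ratio was more than 4 log2 units above the highest knockdown ratio. As the median over single cells, the log2 ratio was 3.79 to 4.10 in knockdown libraries and 7.35 to 7.95 in WT libraries.

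GENCODE 29 names 25 pseudogenes of FTH1 and 16 of FTL, so reads that match several copies make their absolute levels uncertain. The other 99 tested genes with at least 10 named pseudogenes had a median log2 difference between genotypes of 0.12 in untreated cells, from -2.04 to 3.69 for RPL17, against 4.63 for FTH1. In irradiated cells their median was -0.05, from -1.66 to 1.96, against 4.19 for FTH1. Among all tested genes, those with few counts included, FTH1 ranked 148 by log2 difference in untreated cells and 203 in irradiated cells. Of these 99 genes, 18 were higher and 14 lower past an adjusted p of 0.05 (edgeR) in untreated cells, where 9.94% of all genes were called, and 9 were higher and 14 lower in irradiated cells, where 5.1% were. The part of multi-copy reads in the difference of FTH1 was not tested. BEST1 overlaps FTH1 on the opposite strand, and the labels do not say whether counting used the strand; BEST1 itself had 0 to 42 counts per library.

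NCOA4 is the receptor that delivers ferritin to the lysosome for breakdown. It stood at 117 and 155 CPM in irradiated knockdown, at 115 and 118 CPM in untreated knockdown, at 123 and 143 CPM in irradiated WT and at 136 and 135 CPM in untreated WT. The untreated knockdown libraries lay below the untreated WT libraries and the irradiated ones overlapped. The log2 difference between knockdown and WT was -0.28 (SE 0.192) in untreated cells and -0.03 (SE 0.192) in irradiated cells.

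HMOX1 (ENSG00000100292.16, chromosome 22, 35380361 to 35394214, plus strand), the inducible haem oxygenase, stood at 60.6 and 62.7 CPM in irradiated knockdown, at 70.3 and 53.9 CPM in untreated knockdown, at 12.1 and 4.17 CPM in irradiated WT and at 10.7 and 6.71 CPM in untreated WT. All 4 knockdown libraries were above all 4 WT libraries. The log2 difference between knockdown and WT was 2.78 (SE 0.437) in untreated cells and 2.88 (SE 0.446) in irradiated cells. The difference in irradiated cells was 3.83 without replicate 1 and 2.26 without replicate 2 of irradiated WT. A single cell held 13.7% to 39.0% of a library's HMOX1 counts, against at most 24.1% for FTH1 and 15.9% for TFRC.

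TFRC (ENSG00000072274.12, chromosome 3, 196027183 to 196082189, minus strand) takes up transferrin-bound iron. It stood at 487 and 446 CPM in irradiated knockdown, at 385 and 345 CPM in untreated knockdown, at 205 and 253 CPM in irradiated WT and at 109 and 173 CPM in untreated WT. The 4 groups did not overlap and followed this order from high to low. The log2 difference between knockdown and WT was 1.31 (SE 0.202) in untreated cells and 0.96 (SE 0.200) in irradiated cells.

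SLC11A2 carries iron out of the endosome after transferrin uptake, and SLC39A14 imports iron that is not bound to transferrin. SLC11A2 stood at 23.1 and 25.2 CPM in irradiated knockdown, at 23.2 and 42.1 CPM in untreated knockdown, at 20.5 and 15.6 CPM in irradiated WT and at 36.8 and 25.9 CPM in untreated WT. SLC39A14 stood at 83.0 and 78.2 CPM in irradiated knockdown, at 84.4 and 69.1 CPM in untreated knockdown, at 75.7 and 45.4 CPM in irradiated WT and at 51.2 and 50.0 CPM in untreated WT. For SLC39A14 the knockdown libraries lay above the WT libraries in both pairs, with log2 differences of 0.55 (SE 0.262) in untreated cells and 0.34 (SE 0.262) in irradiated cells. For SLC11A2 the log2 differences were 0.00 (SE 0.366) and 0.35 (SE 0.370).

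The iron sensors differed by less than 1.5-fold between genotypes. ACO1, which is an aconitase when it holds an iron-sulphur cluster and an RNA-binding protein when it does not, stood at 145 and 144 CPM in irradiated knockdown, at 144 and 155 CPM in untreated knockdown, at 85.1 and 121 CPM in irradiated WT and at 119 and 126 CPM in untreated WT. All 4 knockdown libraries were above all 4 WT libraries, with log2 differences of 0.23 (SE 0.194) in untreated cells and 0.42 (SE 0.195) in irradiated cells. IREB2, which is controlled through its own breakdown, ranged from 38.4 to 54.3 CPM over the 8 libraries, and its groups overlapped in both pairs.

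Where the 9 genes lie in edgeR's quasi-likelihood fit over 12456 genes is given only as a description, since these differences may have chosen them, and it is no test of them. With Benjamini-Hochberg adjustment, 3 of the 9 lay past an adjusted p of 0.05 in either pair of groups, where 9.94% of all genes did in untreated cells and 5.1% in irradiated cells. As a mean over both treatments 3 did, where 16.2% of all genes did. The libraries of the genotypes did not overlap for 6 of the 9 genes in either pair, as for 51.6% of all genes in untreated and 52.2% in irradiated cells. The median log2 difference of the 9 genes was 0.23 in untreated and 0.35 in irradiated cells, beside -0.01 and 0.00 for all genes.

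**Figure D2:**
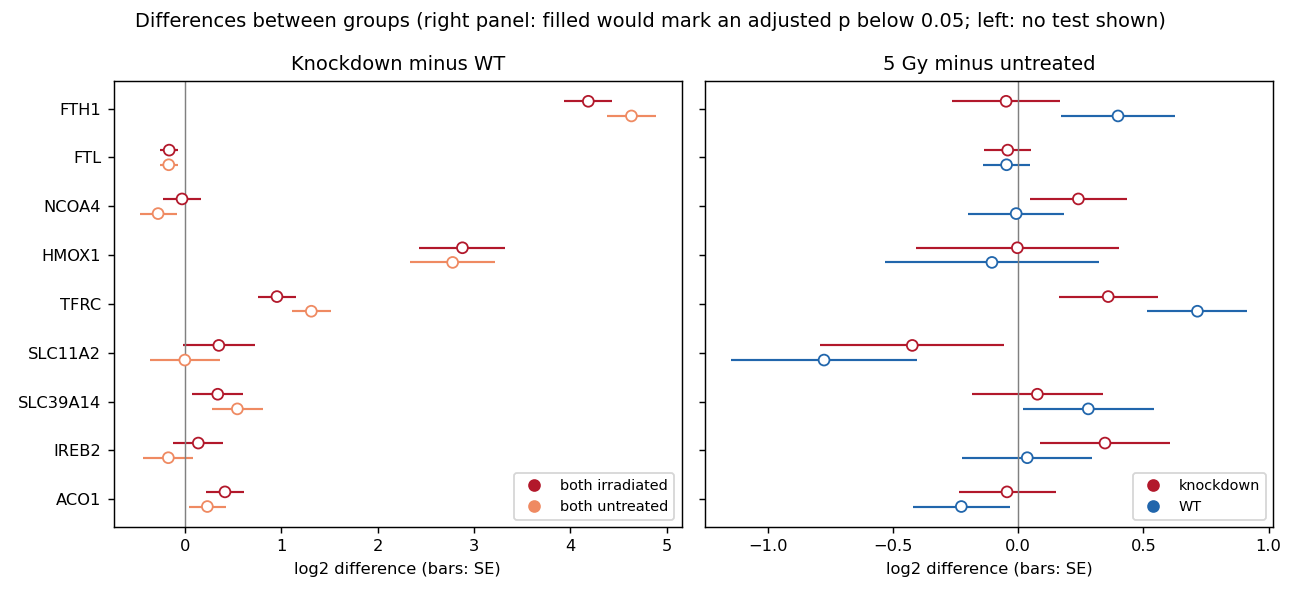
Log2 differences of the 9 genes between ATM knockdown and WT (left, irradiated and untreated pairs) and between irradiated (5 Gy) and untreated cells (right, knockdown and WT), with bars of 1 SE from the edgeR fit. On the right a filled point would mark an adjusted p below 0.05, and none is filled; the left side shows no test, and FTH1, HMOX1 and TFRC lie farthest to its right.

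The question of the irradiation comparison was which transcripts changed 4 h after 5 Gy, and whether they did so with ATM knocked down. None of the 9 genes passed the test (edgeR's quasi-likelihood test, adjusted over all genes) in knockdown cells, in WT cells, in the mean of both or in the difference between genotypes. The background was 0.225% of genes called in knockdown cells, 1.65% in WT cells, 1.49% in the mean and 0.185% in the difference. At an unadjusted p below 0.05 there were 0 of the 9 in knockdown cells (8.86% of all genes), 1 in WT cells (TFRC, 13.9% of all genes), 2 in the mean (TFRC and SLC11A2, 14.5%) and 0 in the difference (9.5%). DESeq2's Wald test called 1 of the 9 (TFRC) in WT cells and in the mean, and 0 in the other 2 contrasts.

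TFRC came nearest to a change with irradiation. In WT cells it stood at 205 and 253 CPM after irradiation, against 109 and 173 CPM without, a log2 difference of 0.72 (SE 0.200, adjusted p = 0.0919 in edgeR). In knockdown cells it stood at 487 and 446 CPM after irradiation, against 385 and 345 CPM without, a log2 difference of 0.36 (SE 0.198, adjusted p = 0.636 in edgeR). In both genotypes the irradiated libraries lay above the untreated ones, as 43.9% of all genes had groups apart in WT cells and 39.5% in knockdown cells. The WT difference was called by DESeq2's Wald test (0.70, adjusted p = 0.0218), and in edgeR with no filter on low counts (0.71, adjusted p = 0.00306), without replicate 1 (adjusted p = 0.0459) or 2 (adjusted p = 0.0446) of untreated knockdown and without replicate 2 of untreated WT (1.10, adjusted p = 0.00214). Without replicate 1 of untreated WT it was 0.40 (adjusted p = 0.385 in edgeR). The difference between the genotypes' responses of TFRC was -0.36 (95% interval -0.95 to 0.24, adjusted p = 0.746 in edgeR).

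The ferritin chains and HMOX1 did not pass the test for irradiation in either genotype. FTH1 differed by -0.05 (95% interval -0.51 to 0.41) on the log2 scale in knockdown cells and by 0.40 (95% interval -0.08 to 0.88) in WT cells. FTL differed by -0.04 (95% interval -0.24 to 0.16) in knockdown cells and by -0.05 (95% interval -0.24 to 0.15) in WT cells. HMOX1 differed by 0.00 (95% interval -0.87 to 0.86) in knockdown cells and by -0.11 (95% interval -1.02 to 0.81) in WT cells. With 2 libraries a group, changes inside these intervals remain compatible with the data.

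Among the remaining genes, SLC11A2 was 0.42 lower on the log2 scale after irradiation in knockdown cells (95% interval -1.21 to 0.36) and 0.78 lower in WT cells (95% interval -1.57 to 0.01). Neither passed the test in edgeR, with adjusted p-values of 0.801 and 0.369. NCOA4, SLC39A14, IREB2 and ACO1 differed by at most 0.35 in either genotype, with adjusted p-values of at least 0.659.

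Single cells showed whether the differences between genotypes ran through all cells. Each cell was thinned to 69000 counts, which 156 knockdown and 174 WT cells reached and 33 kept cells did not. FTH1 was detected in 100% of thinned cells in each knockdown library and in 60.5% to 82.1% of cells in a WT library. The median cell held 27 FTH1 counts in knockdown and 1 in WT. Of the 156 knockdown cells, 121 lay above the highest WT cell, which had 12 counts, and 0 of 174 WT cells reached the knockdown median. The step in FTH1 thus ran through nearly the whole population, and 2 knockdown cells lay at or below the WT median. Without thinning, FTH1 was detected in 97.6% to 100% of cells in knockdown libraries and in 85.4% to 93.8% in WT libraries.

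HMOX1 was detected in 55.0% to 72.1% of thinned cells in a knockdown library and in 8.70% to 30.2% in a WT library. Without thinning these shares were 65.1% to 83.7% in knockdown and 14.6% to 50.0% in WT. Exact 95% intervals, which cover counting error only, ran from 38.5% to 70.7% in the lowest knockdown library and from 17.2% to 46.1% in the highest WT library. The highest knockdown cell held 32 HMOX1 counts and the highest WT cell 17. Of 156 knockdown cells, 7 exceeded that WT cell. The knockdown median was 1 count, which 35 of 174 WT cells reached, and 61 knockdown cells lay at the WT median of 0. The genotypes thus overlapped in part.

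TFRC was detected in nearly every cell, 97.5% to 100% in knockdown libraries and 93.0% to 100% in WT libraries. Its median was 28 counts in knockdown cells and 11 in WT cells, and 16 of 174 WT cells reached the knockdown median. By group, the median was 31 counts in irradiated knockdown, 21 in untreated knockdown, 14 in irradiated WT and 7 in untreated WT. This order is that of the summed counts.

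FTL was present in every thinned cell, at a median of 424 counts in knockdown and 484 in WT, and 111 of 174 WT cells reached the knockdown median. Its mean was 433 to 493 counts over the knockdown libraries and 527 to 556 over the WT libraries, so it was lower in all 4 knockdown libraries. Of the genes with fewer counts, SLC39A14 had a median of 4 counts in knockdown cells and 2 in WT cells, ACO1 8 and 7, NCOA4 7 and 8, and IREB2 1 and 2. SLC11A2 had a median of 0 in both and was detected in 42.4% to 52.5% of cells in knockdown libraries and in 34.8% to 51.2% in WT libraries.

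**Figure D3:**
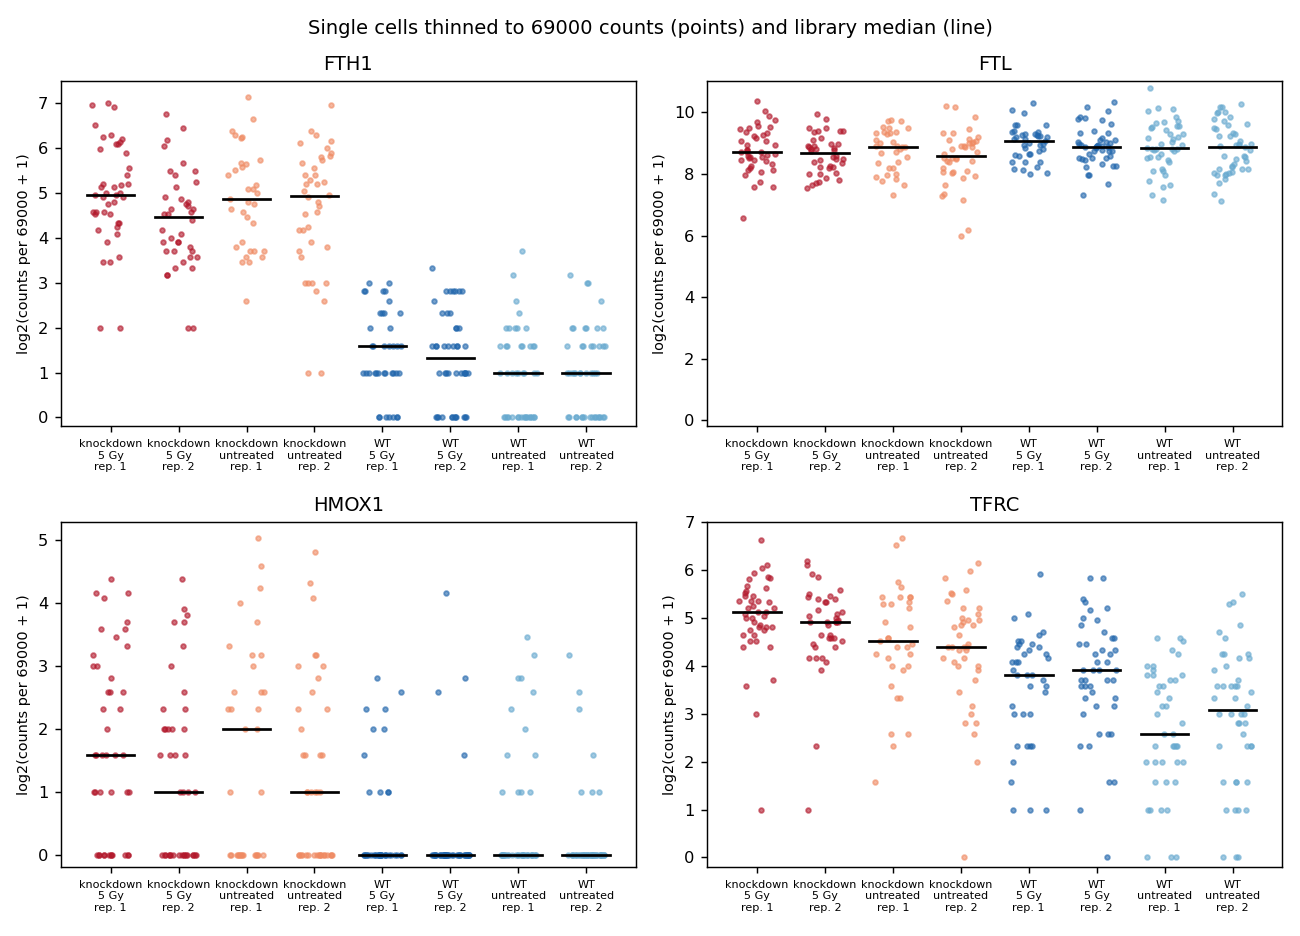
Counts of FTH1, FTL, HMOX1 and TFRC in single cells thinned to 69000 counts, as log2(count + 1), for the 8 libraries (points are cells, lines library medians), knockdown at the left and WT at the right, irradiated (5 Gy) before untreated. The FTH1 clouds of knockdown and WT are nearly apart, those of TFRC are shifted, and those of FTL overlap widely.

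Within a library, cells with more FTL also held more FTH1. Spearman's rho between the 2 chains over the thinned cells of a library was 0.74 and 0.73 in irradiated knockdown, 0.79 and 0.77 in untreated knockdown, 0.48 and 0.26 in irradiated WT and 0.39 and 0.46 in untreated WT. It was positive in 8 of 8 libraries. The cells of a library share its preparation, and WT cells hold few FTH1 counts. FTL and TFRC had a median rho of -0.26, from -0.46 to 0.02, and FTH1 and TFRC one of -0.18, from -0.46 to 0.28. The ferritin pair had the highest median rho of the 36 pairs of the 9 genes, and the other 35 medians lay between -0.26 and 0.16.

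**Figure D4:**
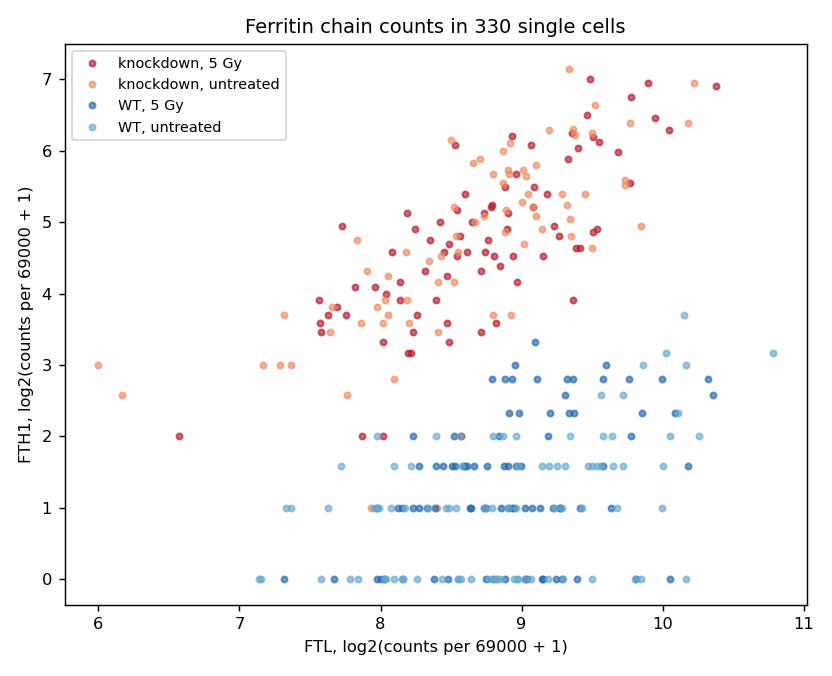
FTH1 against FTL in the 330 single cells thinned to 69000 counts, both as log2(count + 1), coloured by group (knockdown and WT, each irradiated with 5 Gy and untreated). Most knockdown cells form a band that climbs with FTL, and WT cells lie below it, at 12 FTH1 counts or fewer over the same range of FTL.

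Over the 8 libraries, the genes whose log2 CPM followed a member most closely were taken among the 5031 genes that averaged 5 or more in log2 CPM, as a description. DRG1, ESF1, COL4A1, CHST11 and CELF2 were most like FTH1, with Pearson's r of 0.996 to 0.988. EIF3A, TPM1, ORAI1, AP1S1 and PPA1 were most like HMOX1, with r of 0.984 to 0.976. EI24, HNRNPAB, DKC1 and OGFOD1 were among the genes most like TFRC, with r of 0.994 to 0.979. APEH, SEC22B, F2R, STARD3NL and CREBL2 were most like FTL, with r of 0.972 to 0.931. The distance between the genotypes enters every one of these values.

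Around these genes, the other transcripts of iron transport were mostly not called. The gene lists used from here on were chosen with earlier results of these data known. The p-values and calls of their genes, between genotypes and for irradiation, therefore carry that limit and are no independent test. Of 13 tested genes of iron transport, 1 was higher and 0 were lower in knockdown in each pair of groups, against 4.83% of all genes higher in untreated and 2.18% in irradiated cells. That gene was LCN2, the secreted siderophore-binding protein lipocalin 2, at 14.5 and 12.1 CPM in irradiated knockdown, 31.5 and 21.7 CPM in untreated knockdown, 3.54 and 2.29 CPM in irradiated WT and 2.39 and 0.951 CPM in untreated WT. Its log2 difference was 3.93 (SE 0.623, adjusted p = 0.000987 in edgeR) in untreated cells and 2.13 (SE 0.586, adjusted p = 0.0488) in irradiated cells. Without the large cells (those over 2 times the median total of their library) these were 2.11 (adjusted p = 0.117) and 1.57 (adjusted p = 0.314) in edgeR, and leaving out either replicate of irradiated knockdown (2.01 and 2.24) or of irradiated WT (2.48 and 1.82), or replicate 1 of untreated knockdown (2.12), also ended the call in irradiated cells. SLC40A1, the iron exporter ferroportin, stood at 2.02 and 0.773 CPM in irradiated knockdown and 7.51 and 11.7 CPM in irradiated WT. Its log2 difference of -2.85 (SE 0.791) did not pass edgeR's test in the main fit but did DESeq2's (adjusted p = 0.00382). In edgeR it passed with DESeq2 size factors (adjusted p = 0.0494) and with no filter on low counts (adjusted p = 0.022). It also passed there with only the 2 irradiated groups fitted (adjusted p = 0.0462) and without large cells (-4.23, adjusted p = 0.0377). The call thus depended on the setting.

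The genes of iron sensing and iron chaperones gave 0 calls among 8 tested in either pair of groups, where 9.94% of all genes were called in untreated and 5.1% in irradiated cells. FBXL5, the ubiquitin ligase subunit that senses iron and targets IREB2, differed by -0.53 (SE 0.234, adjusted p = 0.177 in edgeR) in untreated and by 0.46 (SE 0.235, adjusted p = 0.321) in irradiated cells. Of 18 tested genes of haem synthesis, transport and breakdown, 1 was higher and 1 lower in knockdown in untreated cells (9.94% of all genes called) and 0 were called in irradiated cells (5.1%), which is near the share over all genes. BLVRA, which reduces the biliverdin that haem oxygenase makes, fell by 0.80 on the log2 scale (SE 0.191, adjusted p = 0.0148 in edgeR), to 146 and 121 CPM in untreated knockdown, against 219 and 229 CPM in untreated WT. BLVRB, a second biliverdin reductase, differed by 0.11 (SE 0.204, adjusted p = 0.792). Without replicate 2 of untreated knockdown BLVRA differed by -0.65 and its call was lost. The call was also lost without large cells (-0.61, adjusted p = 0.0762 in edgeR).

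In edgeR's fit of all 4 groups, CPOX, an enzyme of haem synthesis, was the gene of these lists called for irradiation within a genotype. It rose to 139 and 139 CPM in irradiated WT, against 66.0 and 66.0 CPM in untreated WT, by 1.10 on the log2 scale (SE 0.205, adjusted p = 0.0178 in edgeR). In a fit of the WT libraries alone the adjusted p was 0.0653. In untreated cells CPOX was also higher in knockdown, at 99.1 and 132 CPM, by 0.75 (SE 0.204, adjusted p = 0.0291 in edgeR). That call was lost with only the 2 untreated groups fitted (adjusted p = 0.0849 in edgeR). It was also lost without replicate 2 of untreated knockdown (0.55) and without replicate 1 (0.74) or 2 (0.77) of untreated WT. SLC25A37, of the iron transport list, differed by -0.91 with irradiation in knockdown cells (SE 0.196, adjusted p = 0.0878 in edgeR). DESeq2's Wald test called it in knockdown (-0.92, adjusted p = 0.00217) and WT cells (-0.70, adjusted p = 0.0212). That test also called MAFF in knockdown (-1.08, adjusted p = 0.0373) and BOLA3 in WT cells (0.63, adjusted p = 0.0346).

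Of 23 tested genes of iron-sulphur cluster assembly, 3 were higher and 0 lower in knockdown in untreated cells, where 4.83% of all genes were called higher, and 0 were called in irradiated cells, where 5.1% were called. BOLA3, which helps to hand on mitochondrial clusters, rose by 1.02 on the log2 scale (SE 0.191, adjusted p = 0.00317 in edgeR). GLRX3, a cytosolic glutaredoxin that carries clusters, was higher by 0.81 (SE 0.190, adjusted p = 0.0142 in edgeR). That call was lost without replicate 1 of untreated knockdown (0.53) or replicate 2 of untreated WT (0.73). In edgeR it was also lost without large cells (0.58, adjusted p = 0.111) and with only the 2 untreated groups fitted (0.81, adjusted p = 0.0549). HSPA9, the mitochondrial chaperone mortalin, was higher by 0.51 (SE 0.146, adjusted p = 0.0367 in edgeR). That call was lost without any 1 of the 4 knockdown or the 2 untreated WT libraries (0.47 to 0.55). In edgeR it was also lost without large cells (0.50, adjusted p = 0.0842) and with only the 2 untreated groups fitted (0.51, adjusted p = 0.0902). The median of the list was 0.24 in untreated and 0.09 in irradiated cells, beside -0.01 and 0.00 for all genes.

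The regulators of HMOX1 transcription did not pass the test between genotypes. NFE2L2, which encodes NRF2, differed by -0.12 (SE 0.192) in untreated cells and -0.26 (SE 0.192) in irradiated cells. Its repressor KEAP1 differed by 0.22 (SE 0.262) and 0.11 (SE 0.263), and BACH1 by -0.18 (SE 0.439) and -1.03 (SE 0.444). The lowest adjusted p among these in edgeR was 0.223.

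Of 17 tested genes of NRF2 and BACH1 control and NRF2 targets, 3 were higher and 0 lower in knockdown in untreated cells, where 4.83% of all genes were called higher, and 0 were higher and 1 lower in irradiated cells, where 5.1% were called. PRDX1, a peroxiredoxin, rose by 1.31 (SE 0.207, adjusted p = 0.000962 in edgeR), to 216 and 189 CPM in untreated knockdown, against 67.2 and 89.6 CPM in untreated WT. In irradiated cells PRDX1 was 0.72 higher (SE 0.205, adjusted p = 0.0567 in edgeR), and it was called there by DESeq2's Wald test (0.72, adjusted p = 0.0168) and in edgeR with no filter on low counts (adjusted p = 0.0124). TXNRD1, thioredoxin reductase 1, rose by 0.59 (SE 0.117, adjusted p = 0.00506). SLC7A11, the cystine importer, rose by 0.96 (SE 0.208, adjusted p = 0.00899), and without replicate 2 of untreated WT it differed by 0.71 (adjusted p = 0.0686). NQO1, a quinone reductase often used as an NRF2 readout, differed by 0.00 (SE 0.138) in untreated cells and fell by 0.57 (SE 0.139, adjusted p = 0.0271 in edgeR) in irradiated cells, a call lost without any 1 of the 4 irradiated libraries (-0.68 to -0.46). GCLM, a subunit of the first enzyme of glutathione synthesis, differed by 0.43 (SE 0.177) and -0.11 (SE 0.177), neither past the test.

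Of 11 tested genes tied to ferroptosis, the death by iron-driven lipid peroxidation, 0 were higher and 2 lower in knockdown in untreated cells, where 9.94% of all genes were called, and 0 were higher and 1 lower in irradiated cells, where 5.1% were. GPX4, the peroxidase that removes lipid peroxides, stood at 586 and 418 CPM in irradiated knockdown, at 470 and 489 CPM in untreated knockdown, at 757 and 739 CPM in irradiated WT and at 914 and 1026 CPM in untreated WT. It fell by 1.07 on the log2 scale (SE 0.152, adjusted p = 0.000439 in edgeR) in untreated cells and by 0.65 (SE 0.151, adjusted p = 0.0213) in irradiated cells, where the call was lost without replicate 2 of irradiated knockdown (-0.44) or replicate 1 of irradiated WT (-0.62). HSPB1, a small heat shock protein, fell by 0.67 (SE 0.126, adjusted p = 0.00328 in edgeR) in untreated cells.

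**Figure D5:**
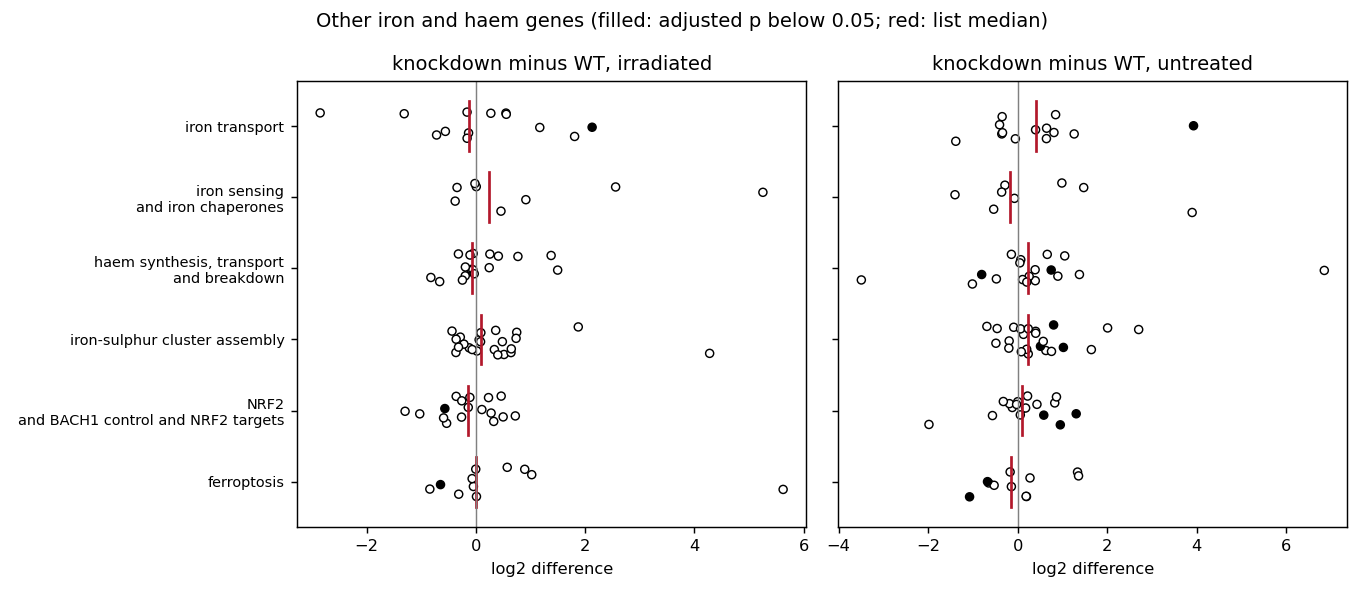
Log2 differences between ATM knockdown and WT, irradiated (left) and untreated (right), of the tested genes of 6 lists on iron, haem and related control (points are genes, filled where the adjusted p from edgeR is below 0.05, red lines list medians). The list medians lie between -0.18 and 0.40, and most points are open. The lists were chosen with earlier results of these data known, so filled points carry that limit.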

How the data were processed

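The authors deposited whole-number counts per coding gene and cell, 1 table per library. Per the submitters' processing notes, Trimmomatic 0.36, HISAT2 2.1.0 and HTSeq 0.9.1 were used with hg38; whether counts are reads or unique molecules, and whether strand was used, is not given in the sources used here. Multi-copy and overlapping genes are therefore uncertain.

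The 9 genes and the gene lists were chosen with earlier results of these data known. Cells with at least 1000 genes and 5000 counts were kept, and their counts summed per library (9321268 to 24256471 counts); doublets were not called, since cells were picked singly. Genes that a table does not list counted as 0 there. After filterByExpr and TMM scaling, edgeR 4.0.16 (R 4.3.3) ran its quasi-likelihood test on all 4 groups together, with Benjamini-Hochberg adjustment over 12456 genes at 0.05. The biological coefficient of variation came to 0.458, on 4 residual degrees of freedom. Contrasts were irradiation within either genotype, the mean and difference of these, and knockdown minus WT in each treatment and their mean. The fit was tested on simulated data.

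Cells were thinned to 69000 counts (seed 1) for measures per cell; 33 shallower cells stayed out. Alternatives were other scalings and filters, DESeq2 1.42.0, limma 3.58.1 on cell-averaged CPM, fitting only the 2 groups compared, keeping all barcodes, dropping cells above 2 times the median total of their library, 30000 counts or no thinning, and each library left out. Named genes were the 9 members, list genes past the threshold (at most 5 by p per list and contrast) and a fixed set. That set was SLC40A1, FBXL5, HMOX2, BLVRB, NFE2L2, KEAP1, BACH1, NQO1, GCLM and ATM. The 5 genes most like each of FTH1, FTL, HMOX1 and TFRC were also named. HMOX2 is not analysed here. List genes called in averaged contrasts alone are not described, except SLC25A37 and MAFF. Positions, pseudogene names and transcripts came from GENCODE 29. One gene among those most like TFRC is not reported here.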

Additional observations from a re-analysis of the deposited data

How the results depend on the processing

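Over 1037 fits of the 63 pairs of a member and a contrast under the alternatives, 955 kept the direction and the side of the threshold, 20 passed it newly, 1 (TFRC between irradiated knockdown and irradiated WT, 0.83 without replicate 1 of irradiated WT) lost it, and 61 changed sign with neither value past the threshold, the lowest adjusted p among these being 0.567. As a description, log2 differences between genotypes under the alternatives ran from 4.20 to 5.01 in untreated and 3.76 to 4.43 in irradiated cells for FTH1, from 2.20 to 3.14 and 2.26 to 3.83 for HMOX1, from 1.01 to 1.70 and 0.83 to 1.23 for TFRC, and from -0.36 to -0.07 and -0.23 to -0.09 for FTL. For irradiation in WT, 1 member (TFRC) was called with no filter on low counts and 1 by DESeq2's Wald test, and 0 to 1 with a library left out. For the mean of both genotypes, 1 member (TFRC) was called with no filter, 1 when only genes averaging 5 or more in log2 CPM were kept, 1 by DESeq2, 1 by limma and 0 to 1 with a library left out. For knockdown against WT over both treatments, and as a description only, 5 members lay past the threshold by limma on the mean CPM per cell. Without cells above 2 times the median total 5 also did. FTL (-0.27 and -0.24) and SLC39A14 (0.60 and 0.60) were the genes added in both settings. Under other scalings the median difference over all genes shifted by at most 0.0649 (log2).

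The share of cells with a count left the exact interval of its library in 17 of 72 cases at 30000 counts per cell and in 21 of 72 without thinning. That interval covers counting error over cells only, and the spread between libraries was not used. The mean count at 30000 counts per cell was held against the SD over single cells of a library, and 0 of 72 moved by more. That SD is wide, so the 0 says little about how stable the means are. The log2 ratio of FTL to FTH1 moved by more than the SD between the 2 libraries of a group in 7 of 8 libraries when taken as the median over cells. With 2 libraries a group, leaving 1 out assumes that the lone library varies like the others. No paired analysis was possible because the replicate numbers follow the order of the samples and the titles carry no number shared between groups.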
